A study of Mus musculus with 3 samples.

Results

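Open chromatin of control oligodendrocyte progenitors was compared with that of control cells 1 day after the switch to differentiation medium with triiodothyronine (T3). ATAC-seq, in which a transposase cuts and tags accessible DNA, had given 1 peak table per stage. Autosomal peaks of both tables were joined wherever they overlapped by at least 1 bp, which gave 172477 sites. Of these, 44037 sites (25.5%) were called at both stages and are the basis of the comparison of signal. Another 59358 were called in progenitors only and 69082 at day 1 only. All 3 libraries of the study, joined over all chromosomes, gave 182865 sites.

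Oligodendrocyte progenitors are the dividing cells of the brain that turn into oligodendrocytes, which wrap axons in myelin. Growth factors such as PDGF-AA keep them dividing. T3 acts through the nuclear receptors TRα and TRβ, encoded by Thra and Thrb, which sit on DNA as partners of retinoid X receptors, and in culture T3 drives cell cycle exit and differentiation. Newly committed oligodendrocytes switch on genes such as Enpp6, Tnr and Fyn before the genes of compact myelin.

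The cells were wild-type C57BL/6 cells, panned with antibodies from the cortex of pups aged 4 to 7 postnatal days, and 50000 cells entered each library. The progenitor group (day 0, the reading given here to a title ending in the letters DO) was kept in medium with PDGF-AA (20 ng/ml), bFGF (20 ng/ml), NT3 (1 ng/ml) and CNTF (10 ng/ml). The day 1 group had received 60 nM T3 for 1 day, with CNTF kept and PDGF-AA, bFGF and NT3 removed. Addition of the hormone and removal of the growth factors therefore cannot be told apart. The other library, from cells with a conditional knockout of the nuclear pore gene Seh1 (Seh1cKO) under the day 1 conditions, is used only for values given side by side. The driver of that deletion and the pooling of animals are not given in the sources used here.

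Each stage had 1 library, so nothing below was checked by replication or given a p-value. Stage and library cannot be told apart. The progenitor library held 23403600 fragments and the day 1 library 18260883. The signal of a site is the highest summit pileup, the number of fragments stacked at a peak's summit, in FPM (fragments at the summit per 1000000 fragments of the library). At shared sites its median was 1.11 FPM in progenitors and 1.53 FPM at day 1, and the median ratio of day 1 to progenitors was 1.34. All log2 ratios below are centred, that is, this shift of 0.42 was subtracted, and "2-fold" means a centred log2 ratio of at least 1 or at most -1. Intervals on ratios are exact Clopper-Pearson intervals at 95% on the split of the fragments at the summits. They cover counting error only, since duplicates were kept and fragments are not independent molecules. Sites are named by the nearest protein-coding gene, which does not say which gene a site serves. A locus is a gene with 10 kb on either side.

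Most shared sites kept their relative signal. A share of 91.2% lay within 2-fold, and 2182 sites (4.95%) were 2-fold stronger and 1704 (3.87%) 2-fold weaker at day 1. Many of these sites rested on few fragments: the median summit held 26 fragments in progenitors and 28 at day 1. Among the 13409 well covered sites, with a mean of at least 2 FPM over both libraries, 707 (5.27%) were 2-fold stronger and 190 (1.42%) 2-fold weaker, so stronger sites made up 78.8% of the changes. At the 30628 other shared sites 1475 were stronger and 1514 weaker. The mean behind this limit is taken before centring, so it admits sites that are high at day 1 more readily than sites that are high in progenitors. Without centring the stronger sites were 98.3% of the changes (1964 against 34). The caller's fold enrichment, which divides the pileup by a local background, gave fewer changes among well covered sites, 236 stronger and 42 weaker, of which 84.9% were stronger. The sign of the pileup ratio and of the fold enrichment ratio was the same at 895 of the 897 well covered sites that changed by pileup. Both ratios use the same summit pileup, so this agreement is largely built in and is no independent check.

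**Figure D1:**
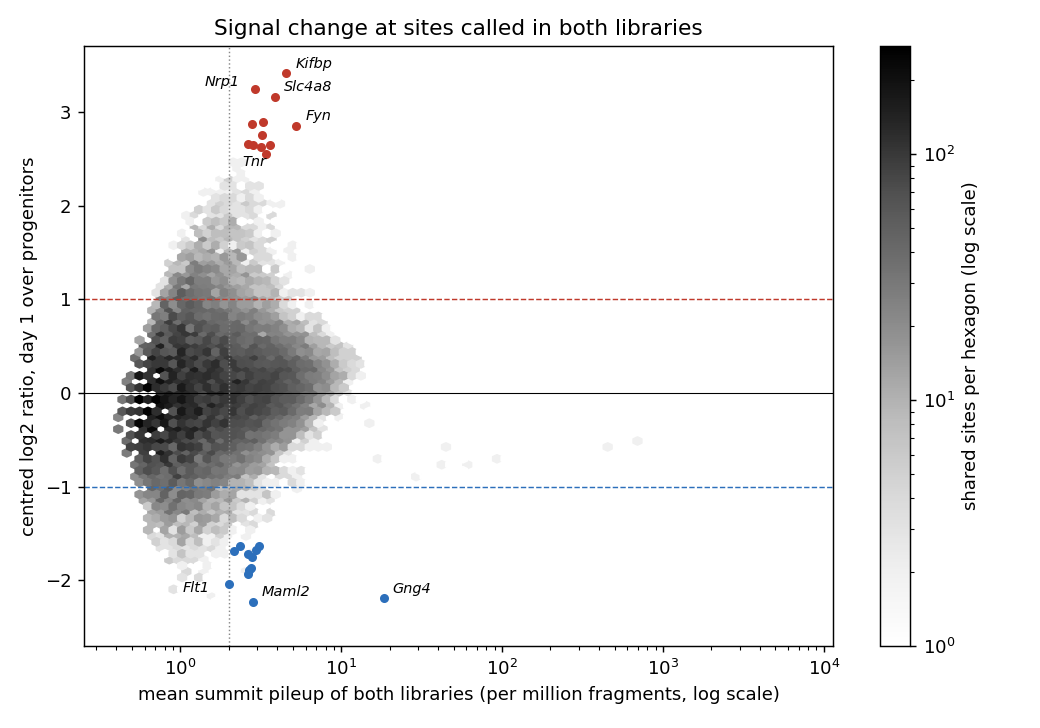
Each hexagon counts shared sites by their mean summit pileup in FPM (log axis) and their centred log2 ratio of day 1 over progenitors; dashed lines mark 2-fold and the dotted line 2 FPM. Red and blue points are the 12 highest and 12 lowest well covered sites, and 93.3% of well covered sites lie between the dashed lines.

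Genome sequence was at hand only for RefSeq promoter windows (GRCm38.p6, the coordinates of mm10). Of the well covered shared sites 5517 overlapped the 250 bases before an annotated start, at 6016 genes; 23 of them were 2-fold stronger and 15 were 2-fold weaker. Windows shown here are those of genes whose starts differed (Lonp2, Cntn1), those of genes of the lists described below at a changed site (Nfasc, Neu4, Sema5a) and that of the T3 response gene Klf9, whose start lay within 2-fold. Capitals mark matches, on either strand, to 7 motifs: AGGTCA (the half-site of nuclear receptors), CAGCTG and CATCTG (E-boxes; the first reads the same on both strands), TGANTCA (AP-1), ACAATG (a Sox-type motif), CCGGAA (ETS) and GGGCGG (the GC box). Each sequence runs 5′ to 3′ towards the start.
Lonp2 first start: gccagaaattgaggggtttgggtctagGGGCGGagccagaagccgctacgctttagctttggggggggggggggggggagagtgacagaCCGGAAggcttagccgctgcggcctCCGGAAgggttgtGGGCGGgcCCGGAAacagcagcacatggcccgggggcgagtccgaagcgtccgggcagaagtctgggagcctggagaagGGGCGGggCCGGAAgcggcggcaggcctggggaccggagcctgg
Lonp2 internal start: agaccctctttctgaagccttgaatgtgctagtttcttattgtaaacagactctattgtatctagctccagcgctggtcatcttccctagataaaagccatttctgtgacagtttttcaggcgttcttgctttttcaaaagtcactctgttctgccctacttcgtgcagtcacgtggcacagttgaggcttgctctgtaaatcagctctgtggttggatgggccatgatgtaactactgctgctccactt
Nfasc internal start: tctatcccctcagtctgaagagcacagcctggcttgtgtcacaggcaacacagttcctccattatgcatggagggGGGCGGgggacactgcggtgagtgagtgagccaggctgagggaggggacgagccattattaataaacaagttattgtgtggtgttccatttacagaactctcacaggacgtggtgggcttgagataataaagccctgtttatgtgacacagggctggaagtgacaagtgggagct
Neu4 start: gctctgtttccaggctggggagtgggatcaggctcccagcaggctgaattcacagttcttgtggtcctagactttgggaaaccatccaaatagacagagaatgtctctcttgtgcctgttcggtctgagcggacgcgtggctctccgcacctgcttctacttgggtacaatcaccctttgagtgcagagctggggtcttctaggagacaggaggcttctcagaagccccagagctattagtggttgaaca
Sema5a start: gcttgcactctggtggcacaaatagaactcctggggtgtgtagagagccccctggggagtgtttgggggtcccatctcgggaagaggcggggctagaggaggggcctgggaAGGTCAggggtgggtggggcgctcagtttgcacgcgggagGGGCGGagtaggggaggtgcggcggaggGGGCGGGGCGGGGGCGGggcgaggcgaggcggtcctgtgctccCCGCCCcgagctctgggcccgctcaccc
Cntn1 internal start: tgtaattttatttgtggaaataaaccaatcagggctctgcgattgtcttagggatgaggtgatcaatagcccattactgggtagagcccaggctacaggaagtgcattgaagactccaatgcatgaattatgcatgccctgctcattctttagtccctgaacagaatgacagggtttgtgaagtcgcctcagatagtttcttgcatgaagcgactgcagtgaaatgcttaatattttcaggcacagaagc
Klf9 start: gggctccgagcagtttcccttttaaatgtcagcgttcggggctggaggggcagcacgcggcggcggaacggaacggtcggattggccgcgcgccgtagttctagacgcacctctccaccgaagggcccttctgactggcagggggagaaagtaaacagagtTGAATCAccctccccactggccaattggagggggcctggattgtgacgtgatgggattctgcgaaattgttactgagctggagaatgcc

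Lonp2 encodes a protease of peroxisomes. Its first start (chr8:86623793-86624042, plus strand) held 4 CCGGAA and 3 GGGCGG matches and lay in a site with 75 fragments in progenitors and 71 at day 1, a centred log2 ratio of -0.14. The window of its internal start (chr8:86651319-86651568, plus strand) held none of the 7 motifs and lay in a site that went from 24 to 84 fragments, a ratio of 1.74, the highest of any well covered site over a promoter window. By fold enrichment it was 0.98, just short of 2-fold.

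Nfasc encodes neurofascin, a cell adhesion protein of the axon-glia junction and the node of Ranvier. The site over an internal start (chr1:132707327-132707576, minus strand) went from 44 to 107 fragments, a ratio of 1.22, and its window held 1 GGGCGG match. By fold enrichment the ratio there was 0.17. At the start of Neu4, a sialidase gene (chr1:94020243-94020492, plus strand, no match), the site went from 48 to 101 fragments, a ratio of 1.01 that also shrank, to 0.12, by fold enrichment. Both sites were thus stronger by height and little changed relative to their surroundings. At the start of Sema5a, a semaphorin gene (chr15:32244563-32244812, plus strand, 1 AGGTCA and 5 GGGCGG matches), the site went from 22 to 58 fragments, a ratio of 1.33, and 0.90 by fold enrichment. That site began at 32244773, near the end of the window. The AGGTCA match and all but the last GGGCGG match lay before it.

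Cntn1 encodes contactin 1, an adhesion molecule of neurons and oligodendrocyte lineage cells. Its internal start (chr15:92161107-92161356, plus strand, no match) went from 93 to 39 fragments, a ratio of -1.32, while the site at the first annotated start went from 34 to 51, a ratio of 0.52. Of these 2 starts of Cntn1 the internal one was past 2-fold and the first was not. By fold enrichment the internal one, at -0.68, was not past 2-fold either. The Klf9 window (chr19:23140976-23141225, plus strand) held 1 TGANTCA match.

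A site can lie over several windows, which often overlap. GGGCGG was in 42.6% of all 21263 promoter windows and in 67.4% of the 6887 over a well covered shared site. It was in 20 of the 30 windows at stronger sites (66.7%) and in 6 of the 19 at weaker sites (31.6%). AGGTCA was in 12.8% of all windows, in 8.44% of those over a well covered site, in 4 of 30 at stronger sites and in 6 of 19 at weaker sites. These counts are descriptions of a few windows, and a match is not evidence of binding.

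Changes lay away from gene ends. Of 6520 well covered sites within 1000 bp of an annotated gene end, 63 (0.966%) were 2-fold stronger and 15 (0.230%) 2-fold weaker. Within genes but away from the ends, 388 of 4093 (9.48%) were stronger and 86 weaker. Between genes the shares were 8.15% and 2.60% within 100 kb of a gene, and 11.4% and 4.48% beyond. The SD of the centred ratio was 0.38 at gene ends against 0.64 within genes. Of all 707 stronger sites 54.9% lay within genes and 8.91% at gene ends, where 48.6% of well covered sites lay. By fold enrichment the counts were 19 of 6520 stronger at gene ends and 127 of 4093 within genes.

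**Figure D2:**
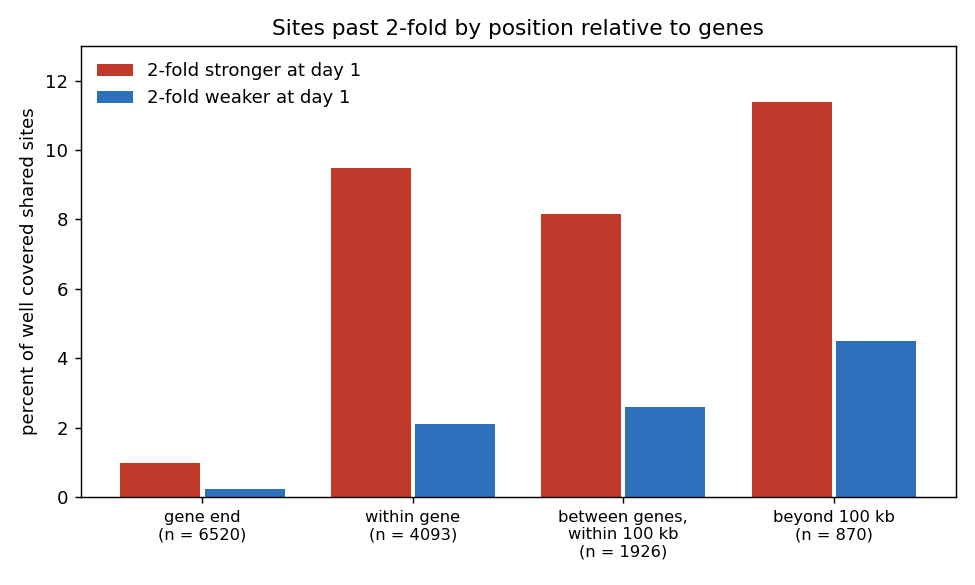
Bars give the percent of well covered shared sites that were 2-fold stronger (red) or weaker (blue) at day 1 by position; n is the number of sites. Gene ends have the lowest bars, 0.966% and 0.230%.

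Start sites lay near 0 whether or not a distal site changed. In 218 genes with a well covered site at a RefSeq start, another site of the locus was 2-fold stronger. The median centred ratio at their starts was 0.08, the same to this precision as in the 1988 genes with no other site past 2-fold, and 5 of the 218 had a start site 2-fold stronger. In 45 genes with a weaker distal site the median at the start was 0.06, and none of their start sites was 2-fold weaker. Of stronger sites with a well covered neighbour within 50 kb, the nearest neighbour was also 2-fold stronger in 45 of 387 (11.6%) and 2-fold weaker in 0. For sites within 2-fold the nearest neighbour was stronger in 4.53% of 7644. Sites with a neighbour share the local background and the locus, so these are not independent counts.

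Width changed with signal. The median shared peak was 425 bp wide in progenitors and 459 bp at day 1. Sites 2-fold stronger had a median centred width ratio of 1.66, and 1885 of 2182 (86.4%) were wider. Sites 2-fold weaker had a median of 0.651, and 260 of 1704 (15.3%) were wider. Across all shared sites of this pair of libraries, signal and width ratios had a Pearson correlation of 0.47 and a Spearman correlation of 0.42. A peak's width is set by where its pileup passes the calling threshold, so both quantities share the same fragments and depth. Width also changed at sites of little signal change. Of the 3889 sites 2-fold wider and the 2949 sites 2-fold narrower, 1274 had a centred log2 signal ratio within 0.2 of 0.

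**Figure D3:**
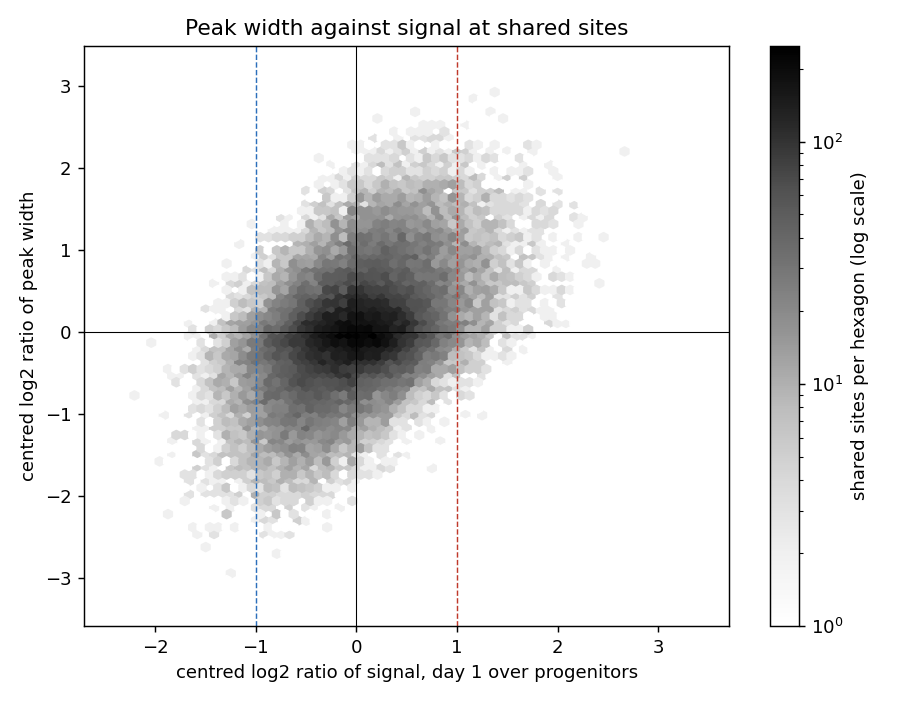
Each hexagon counts shared sites by centred log2 ratio of signal (horizontal) and of peak width (vertical), day 1 over progenitors; dashed lines mark a 2-fold change of signal. Most sites past the right-hand line lie above 0, with a median width ratio of 1.66.

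The 12 strongest increases, 1 per gene, lay 5.85-fold to 10.7-fold above the typical shift, and 7 were within a gene. The highest was within Kifbp, which encodes a kinesin-binding protein (chromosome 10, 62573576 to 62573944). Its summit held 14 fragments in progenitors (0.598 FPM) and 156 at day 1 (8.54 FPM), a centred log2 ratio of 3.41 (interval 2.62 to 4.32), and the peak widened from 102 to 369 bp. In Nrp1, a co-receptor of semaphorins and VEGF (chromosome 8, 128483193 to 128483737), an intragenic site went from 10 to 99 fragments, a ratio of 3.24 (2.30 to 4.35). A site within Slc4a8, a bicarbonate transporter gene, came next with 14 and 131 fragments. These sites were close to the lowest pileup called in progenitors and well above it at day 1.

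Fyn encodes a Src-family kinase that relays axonal signals in oligodendrocytes. The site 52321 bp inside it (chromosome 10, 39421364 to 39422764) went from 23 fragments (0.983 FPM) to 174 (9.53 FPM), a ratio of 2.86 (2.22 to 3.55). It was the only one of the 12 that fell short of 2-fold by fold enrichment, with a ratio of 0.81. Tnr encodes tenascin-R, a matrix glycoprotein made by oligodendrocytes. A site 51401 bp inside Tnr (chromosome 1, 159574749 to 159575511) went from 14 to 92 fragments, a ratio of 2.65 (1.83 to 3.58). The remaining 7 sites, with ratios of at least 2.55, were nearest to Lyst, Macrod2, Edn2, Jakmip1, Astn2, Ccn1 and Txndc11. In the Seh1cKO library 11 of the 12 sites had a peak, at 0.830 to 2.67 FPM, against 4.71 to 9.53 FPM in control cells at day 1. The sites were picked for high control values at day 1, so a lower value in another library is no measure of the knockout.

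The 12 strongest decreases were smaller, 3.10-fold to 4.68-fold. The lowest lay within Maml2, a coactivator of Notch signalling (chromosome 9, 13699226 to 13700172), where 103 fragments (4.40 FPM) in progenitors became 23 (1.26 FPM) at day 1, a ratio of -2.23 (-2.95 to -1.56). A site 32712 bp from Gng4, a G protein gamma subunit gene, went from 663 to 152 fragments, a ratio of -2.19, but by fold enrichment the ratio was -0.55. Within Flt1, a VEGF receptor gene used as an endothelial marker, 71 fragments became 18, a ratio of -2.04, with -1.68 by fold enrichment. The others were nearest to Tacc2, Tmeff2, Lama4 (a laminin chain), Dchs1, Slc35d3, Mipol1, Chl1, Inka2 and Lpin1. Of the 12, 6 were past 2-fold by fold enrichment as well. All 12 had a peak in the Seh1cKO library, at 1.66 to 12.1 FPM, against 0.986 to 8.32 FPM in control cells at day 1. These sites were picked for low control values at day 1, so the same limit holds.

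Loci with several well covered sites gave a second view. Of the 177 genes with at least 5, the highest median ratios were at Epb41l2, a membrane skeleton gene (1.54 over 5 sites), Immp2l (1.08 over 5) and Sgms1, a sphingomyelin synthase gene (1.02 over 5), followed by Iqsec1, Gli2, Adgrv1, Aopep and Dock9 at 0.72 to 0.84. By fold enrichment the medians of these 8 loci ran from 0.22 at Iqsec1 to 0.82 at Immp2l. Tnr held the most 2-fold stronger sites, 5 of 11, and Tns3 held 4 of 10, and neither had a weaker one. Their medians were 0.59 and 0.47 by pileup, and 0.0009 and 0.23 by fold enrichment. The lowest medians were at Kcnd3, a potassium channel gene (-0.73 over 6 sites), Npas3, a transcription factor gene (-0.57 over 5), 9230019H11Rik and Cyria, followed by Kcnip3, Tenm4, Ptprn2 and Xylt1 at -0.51 to -0.35. In 5 of these 8 low loci 1 site was 2-fold weaker, and in the others none was. The low medians thus came mainly from shifts short of 2-fold. By fold enrichment they ran from -0.46 at Kcnd3 to -0.05 at Kcnip3.

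Genes of newly committed oligodendrocytes stood at the high end of the lists. Of 64 well covered sites at 17 of their loci, 18 (28.1%) were 2-fold stronger and 0 weaker, against 5.27% and 1.42% of all well covered sites. Away from gene ends the counts were 17 of 55 (30.9%), against 9.35% of all such sites. The median ratio was 0.42, against 0.10 over all well covered sites, and 16 of the 17 genes had a median above 0, against 62.9% of all 10651 genes with a well covered site. By fold enrichment the median was 0.04, against -0.02 over all well covered sites, and 7 of the 17 genes had a median below 0. The list names 20 genes, of which 19 had a shared site, and over all 167 shared sites 23 were stronger and 2 weaker. The 18 sites lay at 8 genes: Tnr (5), Tns3 (4), Fyn (3), Enpp6, Itpr2, Kif19a, Neu4 and Tmem163. By fold enrichment 7 of the 18 stayed past 2-fold, 10.9% of the 64 sites against 1.76% of all. This list and the others were chosen with earlier results of these data known. Their contrasts with all sites are therefore descriptions and no independent support.

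Enpp6, a choline phosphodiesterase gene and early marker of differentiation, had the highest median of the list, 1.85. A site 49394 bp inside it (chromosome 8, 46988250 to 46988933) went from 21 fragments (0.897 FPM) to 91 (4.98 FPM), a ratio of 2.05 (1.35 to 2.81). A second site 66591 bp inside it went from 26 to 85 fragments, a ratio of 1.64. Both stayed past 2-fold by fold enrichment, at 1.18 and 1.14. In Fyn 2 further sites were stronger, with 20 fragments each in progenitors and 70 and 67 at day 1, while 5 of its 8 well covered sites stayed within 2-fold.

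Tns3 encodes tensin 3, an adaptor of integrin adhesions. A site 26450 bp inside it went from 51 to 173 fragments, a ratio of 1.70 (1.24 to 2.18). Itpr2, a calcium release channel gene, had an intragenic site with 46 fragments in progenitors and 144 at day 1, a ratio of 1.58. Stronger sites were spread along these loci beside sites of little change. In Tnr the 11 well covered sites ran from -0.80 to 2.65. The lowest of the 17 genes was Tcf7l2, a transcription factor of the differentiation switch, with a median of -0.06 over its 3 well covered sites; a site 17866 bp beyond it was called at day 1 only, with 77 fragments.

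**Figure D4:**
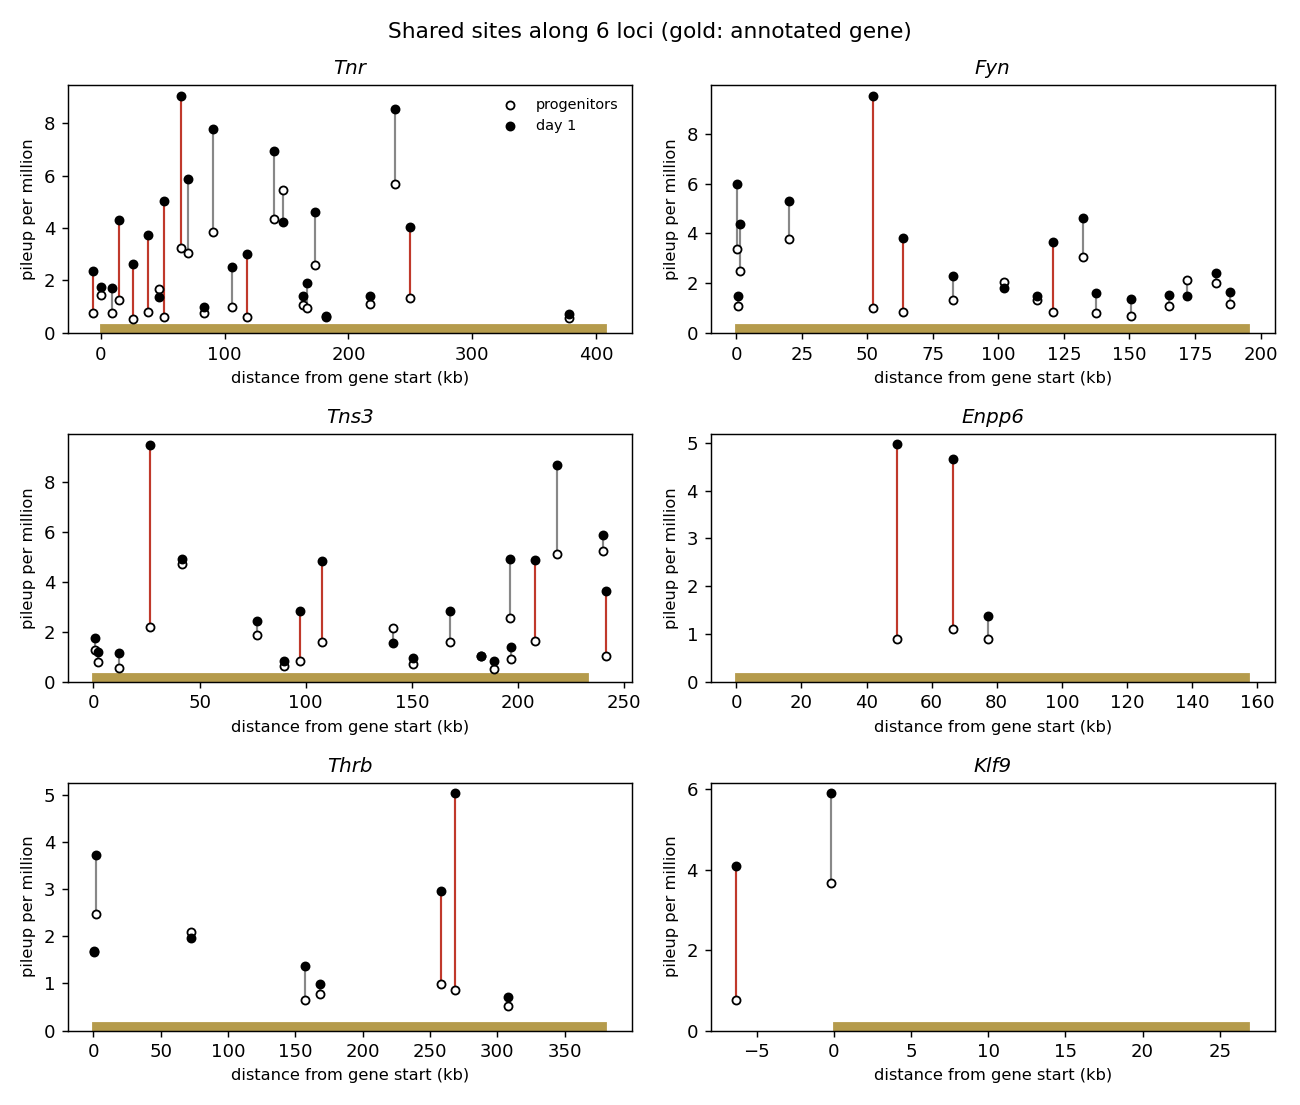
Shared sites at 6 loci by distance from the gene start (horizontal, kb) and summit pileup in FPM (vertical); open points are progenitors, filled points day 1, and red lines join sites 2-fold stronger after centring. Stronger sites stand between sites of little change, as at Fyn, where the site at 52321 bp went from 0.983 to 9.53 FPM.

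The T3 pathway had few well covered loci. Of 27 well covered sites at 9 loci of thyroid hormone genes, 6 (22.2%) were 2-fold stronger and 0 weaker, against 5.27% and 1.42% of all well covered sites. Away from gene ends 5 of 15 were stronger and at gene ends 1 of 12, where the shares over all sites were 9.35% and 0.966%. The median was 0.17, and -0.02 by fold enrichment. Over all 80 shared sites, at 18 of 19 autosomal loci, 9 were stronger and 2 weaker. By fold enrichment 2 of the 6 stayed past 2-fold, among them the one in Thrb. That is 7.41% of the 27 sites, against 1.76% of all well covered sites. Thrb, the TRβ receptor gene, had an intragenic site 268547 bp from its start that went from 20 fragments (0.855 FPM) to 92 (5.04 FPM), a ratio of 2.14 (1.43 to 2.91). The 2 sites at the start of Thrb had ratios of -0.40 and 0.17. In Thra, the TRα receptor gene, an intragenic site went from 50 to 111 fragments, a ratio of 1.09. A site beside one end of the gene had a ratio of 0.87. The other well covered sites of the locus, at 0.13 and 0.15, lay in the flank beyond the gene.

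Klf9 encodes a transcription factor that T3 induces directly in many cells. A site before the gene, at -6315 bp from its start, went from 18 fragments (0.769 FPM) to 75 (4.11 FPM), a ratio of 1.99 (1.24 to 2.82), and widened from 186 to 784 bp. The start itself, whose sequence is given above, held 86 and 108 fragments, a ratio of 0.26. In the Seh1cKO library these sites stood at 2.86 and 6.18 FPM. By fold enrichment the distal ratio was 0.73 and that at the start -0.34.

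Hr encodes a corepressor that T3 is known to induce. A site at one end of the gene went from 29 to 72 fragments, a ratio of 1.25, and by fold enrichment 0.26. Rxrg, a retinoid X receptor gene, had a site at -8982 bp from its start with 37 and 105 fragments, a ratio of 1.44. The lowest of the group was Rxra, with -0.80 at its 1 well covered site.

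Myelin genes were mixed. Of 32 well covered sites at 16 loci, 6 (18.8%) were 2-fold stronger and 1 weaker, against 5.27% and 1.42% of all. The median was 0.28 by pileup and 0.01 by fold enrichment. Of the 6, 1 stayed past 2-fold by fold enrichment, within Sirt2. That is 3.12% of the 32 sites, against 1.76% of all well covered sites. Over all 80 shared sites, at 25 of 27 autosomal loci, 8 were stronger and 2 weaker. The stronger sites lay in Sirt2 (2 sites), Nfasc (2), Ugt8a and Gpr37. In Sirt2, a deacetylase gene of myelin, sites 2432 and 17549 bp inside the gene went from 26 to 103 and from 22 to 88 fragments, while the start held 109 and 110. In Ugt8a, which encodes the enzyme of galactocerebroside synthesis, an intragenic site went from 30 to 105 fragments, a ratio of 1.74, while its 2 sites at the start had ratios within 0.01 of 0.

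Mbp, the gene of myelin basic protein, had 4 well covered sites with ratios from -0.48 to 0.94. The highest went from 38 to 76 fragments (interval 0.36 to 1.54). Myrf, the master regulator of the myelin genes, had an intragenic site with 32 and 56 fragments, a ratio of 0.74 (0.09 to 1.42). A site in its flank, outside the gene, held 46 and 44 fragments. The site over one end of Myrf itself, which was not well covered, held 27 and 34, a ratio of 0.27. The weaker site lay at -3048 bp from the start of Tmem125, with 271 and 130 fragments, a ratio of -1.12 that was -0.18 by fold enrichment. Mal and Cldn11, genes of myelin membrane proteins, had 1 well covered site each, at -0.47 and -0.20. Of the well covered sites at Mbp, Mog, Mal, Cldn11 and Cnp none was past 2-fold.

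**Figure D5:**
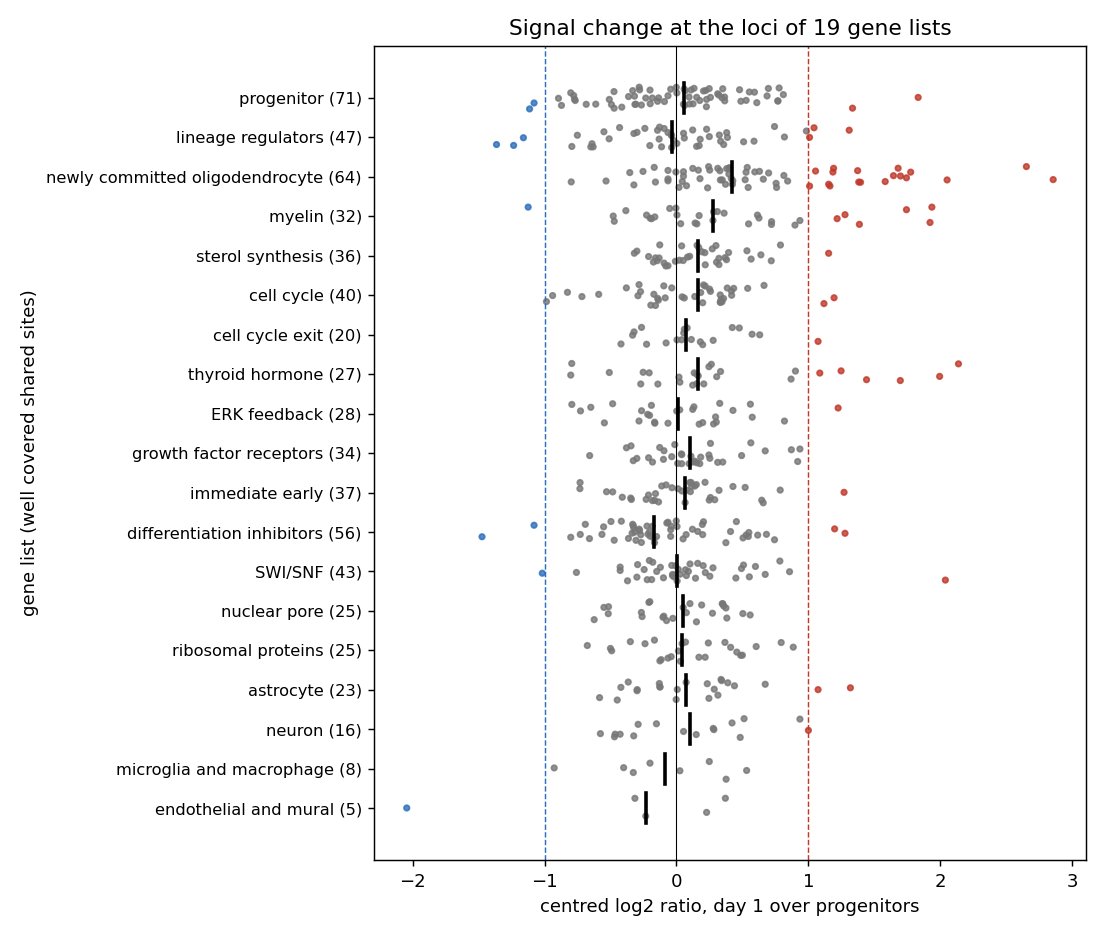
Each point is a well covered shared site at a locus of the list, by its centred log2 ratio of day 1 over progenitors; black bars are medians, dashed lines 2-fold, and the number of sites is in brackets. The newly committed list has the most red points, 18 of 64.

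Progenitor genes had few sites past 2-fold. Of 71 well covered sites at 23 of their loci, 2 were 2-fold stronger and 2 weaker (2.82% each, against 5.27% and 1.42% of all), and the median was 0.06, against 0.10. By fold enrichment 1 of the stronger and 0 of the weaker sites stayed past 2-fold. Pdgfra, the PDGF-AA receptor gene and main progenitor marker, had 111 and 124 fragments at its strongest shared site, a ratio of 0.10, and 36 and 45 at a second well covered site. The weaker sites were in Kcnip3 (60 to 29 fragments, -1.11), a potassium channel interacting protein gene, and Sox6 (97 to 48 fragments, -1.08), a transcription factor of the progenitor state. Both stronger sites were in Sema5a, a semaphorin gene, where an intragenic site went from 18 to 67 fragments (1.83) and the site at the start from 22 to 58 (1.33). All 25 progenitor loci held a shared site.

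Among lineage regulators 3 sites of 47 were 2-fold stronger and 3 weaker (6.38% each, against 5.27% and 1.42% of all). By fold enrichment 0 of the stronger and 1 of the weaker ones stayed past 2-fold. The weaker ones were in Nfia (64 to 26 fragments, -1.36), a glial transcription factor gene, and beside Olig1 (109 to 51, -1.16) and Olig2 (72 to 32, -1.23). At the Olig2 flank, at -2907 bp from the start, fold enrichment gave the opposite sign, 0.18. The Olig2 start held 88 and 84 fragments, a ratio of -0.13. By fold enrichment the ratio at the start was 1.17, past 2-fold, and the peak widened from 356 to 1113 bp. The local background of 10000 bp around the start and the flank also held a progenitor-only peak of 205 fragments inside Olig2, described below. In progenitors the fold enrichment was 2.40 at the start and 2.04 at the flank. The effect of that peak on these values and on the width was not tested. A site 8081 bp after the start held 103 and 128 fragments, a ratio of 0.25, and 0.21 by fold enrichment. The stronger sites were 2 in Zeb2, a repressor of inhibitory signals in the lineage, at 1.31 and 1.04, and 1 in Prrx1 at 1.01. Sox10, a factor needed for terminal differentiation, had ratios of -0.75 and -0.51 at its 2 well covered sites.

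Inhibitors of differentiation, such as genes of the Notch, BMP and Id families, had a median of -0.17 over 56 well covered sites, the lowest of the lists of lineage and signalling genes. Of these sites 2 were 2-fold weaker, in Bmpr1b (85 to 32 fragments, -1.47), a BMP receptor gene, and in Sox6, which 2 of the lists hold. Another 2 were stronger, in Smad1 (25 to 60) and in Gpr37, a receptor gene that is also on the myelin list (58 to 147). That is 3.57% each way, against 5.27% stronger and 1.42% weaker of all well covered sites. The Notch target Hes1 had a ratio of -0.69 at its 1 well covered site and Hes5 a median of -0.43 over 2. The list was mixed: 10 of its 23 genes with a well covered site had a median above 0 (43.5%), against 62.9% of all genes. The Id genes ran from -0.15 at Id4 to 0.21 at Id3. Other Notch pathway genes went both ways, with 0.62 at Rbpj, 0.41 at Notch2 and -0.41 at Notch1.

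At loci of growth factor signalling, counts past 2-fold were too small to set them apart from the 5.27% and 1.42% of all well covered sites. Of 34 well covered sites at receptor genes none passed 2-fold in either direction; the highest gene was Fgfr1 (0.92) and the lowest Erbb4 (-0.33). Of 28 sites at feedback genes of the ERK pathway, 22 of them at gene ends, 1 passed, in Sh2b3 (27 to 66 fragments, 1.23). Etv5 kept its start, with 146 and 172 fragments, a ratio of 0.17, and the Spry4 start had 76 and 69, a ratio of -0.20. Immediate early genes had 1 stronger site of 37, beside Ier5 (23 to 58).

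Cell cycle genes had 2 stronger sites of 40 (5%), at Top2a (26 to 59 fragments) and near Rrm2 (28 to 67), and no weaker one. Of all well covered sites 5.27% were stronger and 1.42% weaker, and 30 of these 40 sites lay at gene ends. The list median was 0.16 over these 40 sites, against 0.10 over all well covered sites. Of its 25 genes with such a site 15 (60%) had a median above 0, against 62.9% of all genes. Ccnd1 and Cdk6 had the lowest medians. Ccnd1, the cyclin that growth factors induce, had well covered ratios of -0.99 (89 to 47 fragments, interval -1.53 to -0.46) at a flanking site and -0.59 inside the gene. The 1 well covered site of its partner Cdk6 had -0.94, while the median over all 11 shared sites of Cdk6 was -0.003. Cdk4 and Ccnd3 had medians of 0.34 and 0.23. Sterol synthesis genes, needed for myelin lipid, had a median of 0.16 over 36 well covered sites. SWI/SNF remodeller genes had 1 stronger site, in Arid1b (17 to 73, 2.04), and 1 weaker, in Smarcd3 (60 to 31), of 43 (2.33% each way). Nuclear pore and ribosomal protein genes, 25 well covered sites each, had none past 2-fold. Of these sites 22 and 24 lay at gene ends, where 0.966% of all well covered sites were stronger and 0.230% weaker. A count of 0 therefore sets neither list apart.

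Sites called at one stage only were mostly weak, with a median of 11 fragments in progenitors and 10 at day 1. Of sites with at least 2 FPM, 37 of 10588 progenitor sites (0.349%) and 466 of 16797 day 1 sites (2.77%) had no peak at the other stage. At 3 FPM or more the numbers were 12 and 72. Presence alone says little, since a site without a call can still hold signal. The lowest pileup called was 9 fragments in progenitors and 8 at day 1. Calls were made against the local background, so an uncalled site can hold more than that where the background is high.

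Sites beyond 100 kb of a protein-coding gene are left unnamed here. They include the 7 highest progenitor-only sites, with 313 to 1643 fragments, and the highest day 1-only site, with 376. Within 100 kb of a gene, the strongest day 1 site without a progenitor peak was within Ehd3, an endosomal trafficking gene (chromosome 17, 73808378 to 73808719), with 113 fragments (6.19 FPM). Then came sites at Chid1 (98 fragments), Tnr (85), Znrf1, Rnf150, Slc35f3, Tcf7l2 and Mme (77), tied with a site within Lrrc1 (77). The Tnr site lay 240174 bp from the start and added to the 5 stronger shared sites of that gene. Within the same limit, the strongest progenitor site without a day 1 peak was inside Olig2 (chromosome 16, 91226416 to 91227340), with 205 fragments (8.76 FPM) and a fold enrichment of 5.47, and it had no Seh1cKO peak either. A peak table does not show whether these fragments come from the genome. The next progenitor sites, at Tmem267, Sfi1, Gm40363, 9230019H11Rik, Trib1, Trnt1 and Duxf3, held 57 to 96 fragments.

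Loci of other brain cell types were checked as well. Astrocyte genes had 2 stronger sites of 23, in Slc4a4 (1.32) and at Atp1b2 (1.07, a site that also lies in the locus of Trp53), and neuron genes 1 of 16, beside Map2 (1.00). Microglia genes had 8 well covered sites, at 6 of 22 loci, none past 2-fold. Of all well covered sites 5.27% were stronger and 1.42% weaker, and these counts are too small to set the lists apart from those shares. Endothelial and mural genes had well covered sites at 3 of 24 loci, Flt1, Cspg4 (also a progenitor marker) and Vwf. Over all 35 shared sites of the endothelial and mural genes 7 were 2-fold weaker and 0 stronger, against 3.87% and 4.95% of all shared sites. Their median was -0.24, and over the 30 microglial shared sites the median was -0.25. Weak shared sites as a whole, under 1 FPM, had a median of -0.15, with 4.88% weaker and 1.53% stronger. The part of such cells in the weaker sites was not tested.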

How the data were processed

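ATAC-seq peak tables of 2 control libraries were compared, and a Seh1cKO table gave values side by side. The submitters' processing notes name Bowtie2, SAMtools, MACS2 and the build mm10. MACS 2.1.2_dev ran on each library alone, per the file headers, with paired-end fragments, duplicates kept and no control, at a q cutoff of 0.05. Nearby peaks up to 50 bp apart were merged, the shortest allowed was 100 bp, and the local background spanned 10000 bp. The deposited tables give the pileup signal at the summit, the −log10 of the p-value and q-value, and the fold enrichment ratio over local background. A shift of reads for the transposase cut is not stated there.

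Python 3.11.15 with pandas 2.3.3, numpy 2.4.6 and scipy 1.17.1 joined peaks, scaled pileups by header fragments and centred ratios on the median over shared sites. The code was tested on simulated data. RefSeq gave 21900 protein-coding genes; 17492 had a promoter window and thus a strand (chromosome 18 was not covered). Named were the 12 highest and 12 lowest well covered sites, the 8 highest and 8 lowest genes with at least 5 such sites, the 8 strongest sites within 100 kb of a gene called in one library only each way (1 per gene), genes of sites past 2-fold and the extreme genes of 19 lists, and Olig2, Pdgfra, Mbp, Myrf, Klf9, Hr, Thra, Thrb, Ccnd1, Spry4 and Etv5. Cntn1, Lonp2 and the windows printed were chosen after their values were seen. The sites and lists were chosen with earlier results of these data known. Depth was 23403600 fragments in progenitors and 18260883 at day 1. Sex chromosomes were left out. Some genes of the lists are not reported here by name.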

Additional observations from a re-analysis of the deposited data

How the results depend on the processing

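No paired analysis was possible because each group has 1 library. Of shared sites, 2182 were 2-fold stronger and 1704 2-fold weaker in the main analysis. These became 6392 and 324 without centring, 1426 and 637 by fold enrichment, 1156 and 976 with a reciprocal overlap of 50%, 1255 and 932 when both peaks had a −log10 q of 5 or more, 545 and 421 when both had 10 or more, 707 and 190 at well covered sites, and 6293 and 6349 at a fold of 1.5. Shared sites fell from 44037 to 21628 at a −log10 q of 10. Sites of progenitors only fell from 59358 to 10550 at 5 and 4377 at 10, and those of day 1 only from 69082 to 21803 and 10492. Centring on gene-end sites, sites with 1 peak of each library and all chromosomes kept the counts within 1.5 times, as did uncentred widths. Over all shared sites of its loci the newly committed list had a median of 0.19, which became 0.017 by fold enrichment, 0.61 without centring and 0.42 at well covered sites. The myelin median of 0.25 became 0.67 and the thyroid hormone median of 0.03 became 0.45 without centring. After the data were seen, counts of stronger well covered sites were also recomputed: by fold enrichment 7 in place of 18 in the newly committed list, 1 in place of 6 in the myelin list and 2 in place of 6 in the thyroid hormone list, and without centring 12 in the myelin list. For the 24 highest and lowest sites no alternative turned the direction. Each alternative uses the same summit pileups at sites picked for extreme ratios, so this was largely built in. By fold enrichment 20 of the 24 left their counting interval, and without centring 1 did. Of the 80 other list medians 21 moved, 16 of them without centring. Signal below about 2 FPM rests on few fragments, and no table used here separates duplicates from independent fragments.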

Other observations

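A small set of shared sites carried very high pileups: 36 sites had a mean above 50 FPM, with centred log2 ratios from -0.89 to 0.71. None of them passed 2-fold. The tables do not say which of these lie in repeated sequence.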
